A study of Drosophila melanogaster with 12 samples.

Results

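The genes described here encode proteins of the mitochondrial ribosome of Drosophila melanogaster. They were taken by name: every probe set whose only annotated gene symbol begins with mRpL or mRpS followed by a digit, with the brightest probe set standing for a gene that has several. This gave 66 probe sets of 64 genes, out of 10844 genes measured, of which 43 belong by name to the large subunit (mRpL) and 21 to the small subunit (mRpS). Of 73 symbols of this form in the RefSeq gene table (Release 6 assembly), the other 9 were not analysed here, among them mRpS10, whose probe set also carries a second gene symbol. The further small-subunit genes tko (mRpS12) and bonsai (mRpS15) are known under older names and are given beside the members but not counted among them.

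Mitochondrial ribosomes sit in the mitochondrial matrix and translate the few messages that mitochondrial DNA encodes, which specify core subunits of the respiratory chain and of ATP synthase. The ribosomal RNA comes from mitochondrial DNA, but the ribosomal proteins are encoded in the nucleus, made in the cytoplasm and imported. Part of them descend from bacterial ribosomal proteins and carry the bacterial numbers, while others, mostly with higher numbers, were added in the mitochondrial lineage. In flies, mutations in tko are known for bang sensitivity, seizures after a mechanical jolt.

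Total RNA of whole flies was hybridised to Affymetrix DrosGenome1 arrays, each sample being a pool of 5 males and 5 females. Flies carried either the S284Y mutation in dU2AF50, the large subunit of the splicing factor U2AF, which binds ahead of 3′ splice sites, or the wild-type gene (WT). The 4 groups, with 3 arrays each, were S284Y flies at 30C (restrictive temperature), WT flies at 30C, S284Y flies at 25C (permissive temperature) and WT flies at 25C. Groups follow the sample titles: every WT 30C array is described with the number 25C, and array 1 of them with the permissive wording too. The labels give no age, no background genotype and no sign that replicates came from separate cultures, so p-values measure only the spread between these samples, which may be technical. In RNA from whole flies, fewer cells of a type and less RNA per cell cannot be told apart.

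Values are probe-set signals, a linear measure of brightness that the deposited table gives already scaled between arrays. Fold changes were computed on log2(signal + 16), which understates the change of dim genes, and tested with limma over all 13966 probe sets of the array that are not controls. A gene was called where its Benjamini-Hochberg adjusted p was under 0.05. A log2 fold change is given with its standard error (SE) from the fit, and a mean signal with the standard deviation (SD) of 3 arrays.

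The 3 arrays of S284Y flies at 25C differed among themselves more than those of any other group. Over all genes, the correlation between arrays of the same group was 0.945 to 0.952 in S284Y flies at 30C, 0.955 to 0.96 in WT flies at 30C, 0.808 to 0.885 in S284Y flies at 25C and 0.945 to 0.948 in WT flies at 25C. Arrays 2 and 3 of S284Y flies at 25C also stood apart in the probe sets for bacterial control RNA, which no fly gene matches: their median was 8.09 times and 2.44 times that of the 9 arrays of the other groups, against 1.06 times on array 1. The ratio of 3′ to 5′ signal of eIF-4a, which is higher where RNA is short or incompletely copied, was 3.46, 3.93 and 5.32 on arrays 1, 2 and 3 of S284Y flies at 25C and 3.13 to 4.37 elsewhere. For GAPDH it was 2.86, 5.06 and 3.38 on these arrays and 2.29 to 3.30 elsewhere. For actin it was 2.04, 2.25 and 2.81 on these arrays and 2.10 to 3.18 elsewhere, so that the 3 ratios did not single out the same array. The 18S ribosomal RNA control had signals of 384.3, 2425.2 and 1722.2 on these arrays and 11.4 to 374.7 elsewhere, so it was high on arrays 2 and 3. The main results that rest on these arrays are also given with some of them left out.

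All but 3 of the members had brighter probe sets than the median gene of the array. Brightness also depends on the probes, so it tells how well a gene was measured and not how its transcripts rank against another gene's. The brightest probe sets were those of mRpS7, a protein of the head of the small subunit, mRpL12, whose bacterial relative forms the stalk that recruits translation factors, and mRpS16. mRpS7 had signals of 5516.2, 5828.7 and 5577.5 in S284Y flies at 30C, 4502.3, 4815 and 5152 in WT flies at 30C, 4096.9, 4234.9 and 9159.2 in S284Y flies at 25C, and 4007.2, 4200.6 and 4262.3 in WT flies at 25C. Its S284Y arrays at 30C were all above the WT arrays at 30C, and array 3 of S284Y flies at 25C was far above every other array. The dimmest were mRpL22, whose bacterial relative lines the exit tunnel of the ribosome, and mRpL41, a protein found only in mitochondrial ribosomes, with group means between 195.5 ± 76.25 and 473 ± 160.3 (SD, n = 3).

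Members were measured reproducibly outside S284Y flies at 25C. The median member had a within-group SD of 0.185 (log2) in S284Y flies at 30C, 0.158 in WT flies at 30C, 0.44 in S284Y flies at 25C and 0.146 in WT flies at 25C. Over the 3 groups other than S284Y flies at 25C, the median SD was 0.194 for members and 0.275 for all genes. It was lower still in 2 lists of brighter genes, 0.170 for oxidative phosphorylation and 0.171 for cytoplasmic ribosomal proteins. With 3 arrays a group, the median 95% confidence interval of a member's log2 fold change reached 0.535 to either side.

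When each signal was set against the gene's own median over 12 arrays, the members' median lay far from 0 on 1 array. On array 3 of S284Y flies at 25C the median deviation of the 64 members was 0.70 (log2), and 56 of them lay above their own median. For 43 of the 64 members (67.2%) that array was the highest of the 12, as it was for 2366 of all 10844 genes (21.8%), whose median deviation there was 0.01. On every other array the median of the members lay between -0.09 and 0.03. The small subunit (median 0.74) and the large subunit (median 0.65) were both high on array 3, as were members with bacterial numbers (mRpL1 to mRpL36 and mRpS2 to mRpS21, median 0.73) and those with higher numbers (median 0.65). The split goes by number alone, and mRpL47 and some other highly numbered proteins are known to have bacterial counterparts as well.

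**Figure D1:**
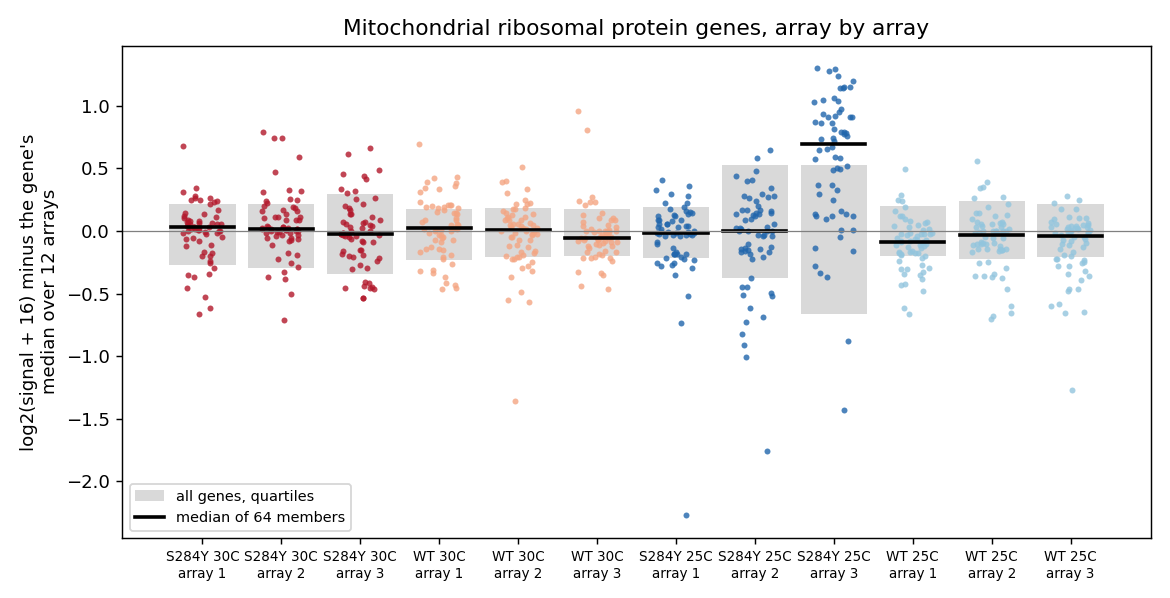
Each point is 1 of the 64 members on 1 array, and the vertical axis is its log2(signal + 16) minus its own median over 12 arrays; black bars are the members' medians and grey boxes the quartiles of all genes. The members' median lies at 0.70 on S284Y 25C array 3 and between -0.09 and 0.03 on every other array.

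Signals of single members show the same array. mRpL23, whose bacterial relative sits by the exit tunnel, had signals of 2750.6, 2683.9 and 5950.6 in S284Y flies at 25C, against 2546.4, 2587.8 and 2626.9 in WT flies at 25C. mRpS25, a small-subunit protein without a bacterial number, had 801.6, 546.9 and 2183.1 in S284Y flies at 25C, against 805.1, 908.7 and 922.1 in WT flies at 25C. In mRpL23 all 3 S284Y arrays lay above the WT arrays, array 3 by far the most, and in mRpS25 arrays 1 and 2 of the S284Y flies lay below all WT arrays. The lowest deviations on array 3 were those of mRpS9 and mRpS30. mRpS9, a relative of a bacterial small-subunit protein, had 1165, 1169.6 and 482.2 in S284Y flies at 25C, against 1441.9, 1017.4 and 1330 in WT flies at 25C. For mRpS30, which in mammals sits in the large subunit despite its name, the S284Y arrays gave 1842.4, 1069.1 and 787 and the WT arrays 1634, 1461.5 and 1448.6. Array 3 was the lowest of all 12 arrays for both genes.

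Members also share a property that the choice by name did not use: their genes are short. The median length of the gene in the RefSeq table was 909.5 bp for the members and 2385 bp for the 10799 genes with a length. Other lists compared below were short too, with medians of 1100 bp for oxidative phosphorylation genes and 1109 bp for cytoplasmic ribosomal protein genes. On array 3 of S284Y flies at 25C, longer genes tended to lower signals. Spearman's rho between a gene's deviation and its length was -0.37 over the 10799 genes and -0.29 over the 64 members there, against -0.08 to 0.18 over all genes on the other arrays. Over the members alone the other arrays gave -0.34 (WT 25C array 3) to 0.45 (S284Y 30C array 3), a range that holds the value of array 3. These are correlations across genes of 1 array, which are not independent replicates. On array 3 the 37 members of up to 1000 bp had a median deviation of 0.78, and the 1490 genes of that length a median of 0.57. The 25 members of 1000 to 2000 bp had a median of 0.65, and the 3073 genes of that length 0.19. The only members longer than that, mRpS30 (2242 bp) and mRpS9 (13391 bp), had deviations of -0.88 and -1.43, and all genes of their length classes medians of -0.19 and -0.37. The part of gene length and of RNA quality in the members' signals on array 3 was not tested.

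**Figure D2:**
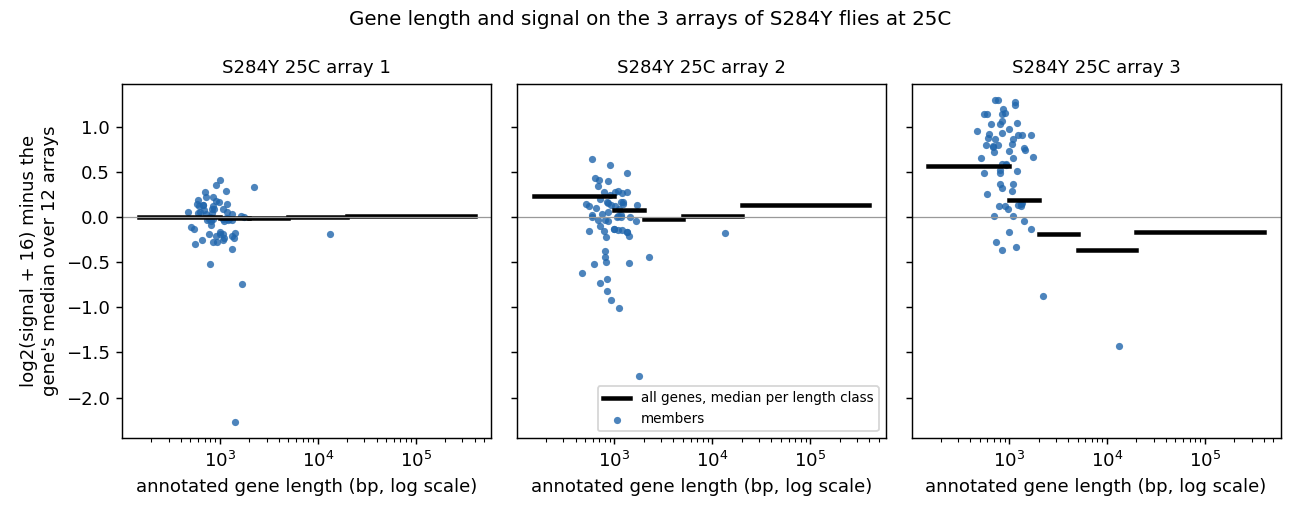
Panels show the 3 arrays of S284Y flies at 25C, with gene length in the RefSeq table on a log axis and log2(signal + 16) minus the gene's own median over 12 arrays on the vertical axis; points are the 64 members and black bars the median of all genes in each of 5 length classes. On array 3 the bar for genes up to 1000 bp lies at 0.57 and the members of that length at a median of 0.78, while mRpS30 and mRpS9 lie below 0.

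At 25C, 52 of 64 members had a higher mean log2 signal in S284Y flies than in WT flies, with a median log2 fold change of 0.27 (1.20-fold) against -0.01 over all genes, but none passed the test. With each array centred on its median, 59 of 64 were higher, with a median of 0.34 against 0.07 over all genes. The lowest adjusted p in limma was 0.0729. At an unadjusted p under 0.05, 10 members were higher and 0 lower, where the array as a whole had 5.99% higher and 7.89% lower. Of all probe sets, 0.315% were called higher and 0.473% lower. The groups did not overlap in 14 members, all higher in S284Y flies, and in 7.58% of all genes (higher) and 7.41% (lower). Without array 3 of S284Y flies at 25C, 38 of 64 members were higher, the median was 0.05 and none was called. Without array 1 the median was 0.40 and 5 were called higher (mRpL28, mRpL46, mRpL47, mRpL51 and mRpS6). How many of all probe sets that fit called is not given here, so these 5 cannot be set against the shares called with all arrays. For S284Y flies at 25C, that fit rests only on the arrays that stood apart in the probe sets for bacterial control RNA. With array 1 as the only S284Y 25C array, 41 of 64 were higher, the median was 0.06 and 1 was called lower (mRpL3). Medians were 0.24 for the large subunit (34 of 43 higher) and 0.30 for the small subunit (18 of 21 higher) with all arrays.

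The members with the highest log2 fold changes at 25C were mRpL46 and mRpL47, large-subunit proteins, and mRpL9, a relative of a bacterial large-subunit protein. mRpL46 had signals of 1710.4, 2001.7 and 2980 in S284Y flies at 25C, against 1260.2, 1206.3 and 844.6 in WT flies at 25C. All 3 S284Y arrays lay above all 3 WT arrays. The log2 fold change was 0.99 ± 0.231 (SE, 1.98-fold, limma adjusted p = 0.0729) with all arrays and 0.76 (adjusted p = 0.0610) without array 3. mRpL47, known in other species as the counterpart of bacterial protein L29 at the exit tunnel, had 1069.2, 1237.3 and 1592.7 in S284Y flies and 815.1, 632.5 and 657.8 in WT flies, again without overlap, a log2 fold change of 0.86 ± 0.235 (limma adjusted p = 0.132). Without single arrays the value ran from 0.71 to 0.99. mRpL9 averaged 2501 ± 480.7 in S284Y flies and 1543 ± 498.6 in WT flies (SD, n = 3 each), a log2 fold change of 0.72 ± 0.214 (limma adjusted p = 0.175), or 0.57 to 0.97 without single arrays. None of these differences passed the threshold with all arrays.

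The lowest log2 fold changes at 25C were those of mRpL3, mRpS9 and mRpS30. mRpL3, whose bacterial relative is needed early in the assembly of the large subunit, had 158.8, 577 and 801.6 in S284Y flies and 765, 1091.5 and 703.6 in WT flies. Array 1 of S284Y flies was the lowest of all 12 arrays and array 3 lay within the WT range. The log2 fold change was -0.96 ± 0.469 (limma adjusted p = 0.386) with all arrays, and with array 1 as the only S284Y 25C array it was -2.29 (adjusted p = 0.0111), a value that assumes that this lone array varies like the other groups. Without array 1 it was -0.29 (adjusted p = 0.607). The values for mRpS9 and mRpS30 were -0.51 ± 0.292 (limma adjusted p = 0.442) and -0.38 ± 0.271 (adjusted p = 0.533). Without array 3 of S284Y flies they were -0.10 and -0.11.

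On array 3 of S284Y flies at 25C, tko was high and bonsai low. tko encodes the small-subunit protein of the decoding centre and had signals of 2280.8, 1562.6 and 3512.7 in S284Y flies at 25C, against 1566.9, 1963.6 and 1962.4 in WT flies at 25C. The groups overlapped, and the log2 fold change was 0.35 ± 0.245 (limma adjusted p = 0.528). It was 0.05 without array 3 of S284Y flies at 25C and 0.32 with array 1 as the only S284Y 25C array. bonsai, another small-subunit protein, had 2279.8, 1645.7 and 741.7 in S284Y flies and 2450.8, 2702.7 and 2514.3 in WT flies. Its S284Y arrays were all below the WT arrays, with array 3 lowest, and the log2 fold change was -0.85 ± 0.299 (limma adjusted p = 0.245). It was -0.40 without array 3 and -0.16 with array 1 as the only S284Y 25C array. In S284Y flies bonsai had a mean of 3003 ± 34.52 at 30C and 1556 ± 773 at 25C (SD, n = 3 each), a log2 fold change of 1.08 ± 0.299 (limma adjusted p = 0.0596). Without array 3 at 25C this was smaller but passed the threshold (0.63, adjusted p = 0.0238), and with array 1 as the only 25C array it was 0.40 (adjusted p = 0.181).

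At 30C, the restrictive temperature, the members were evenly split: 32 of 64 had a higher mean log2 signal in S284Y flies than in WT flies. Log2 fold changes ran from -0.73 to 0.72, with a median of 0.000834 against 0.02 over all genes. With each array centred on its median the split was 41 of 64 higher and the median 0.04, and after quantile normalization 30 of 64 and -0.02. None was called, and the lowest adjusted p in limma was 0.365. At an unadjusted p under 0.05, 0 members were higher and 1 lower (mRpS6), where all probe sets had 4.28% higher and 6.69% lower. Among all probe sets 0.351% were called higher and 1.17% lower. For 55 of the 64 members the 95% confidence interval lay within a 2-fold change in either direction. The groups did not overlap in 5 members that were higher and 4 that were lower, against 15.3% and 14.6% of all genes. This comparison holds no array from S284Y flies at 25C, although they enter the fit's estimate of spread.

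Among single members at 30C, mRpL39, a large-subunit protein particular to mitochondria, had the highest log2 fold change. Its signals were 1304.9, 1809.4 and 1904.2 in S284Y flies at 30C, against 958.6, 1098.3 and 946.6 in WT flies at 30C. The S284Y arrays were all above the WT arrays, and the log2 fold change was 0.72 ± 0.348 (limma adjusted p = 0.496). Where the limma fit held the 30C arrays alone, the same value had an adjusted p of 0.0270. The share of all probe sets called in that fit is not given here. mRpL22 and mRpL4, whose bacterial relatives both line the exit tunnel, followed with 0.53 ± 0.409 (limma adjusted p = 0.755) and 0.42 ± 0.322 (adjusted p = 0.752). In both the arrays of the genotypes overlapped, and single arrays set much of the value: it was 0.20 for mRpL22 without WT 30C array 2 and 0.17 for mRpL4 without WT 30C array 3.

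The lowest at 30C were mRpS18B, mRpS6 and mRpL43. mRpS18B, which with mRpS18A and mRpS18C forms a trio related to a single bacterial protein, had 404.6, 361.5 and 652.3 in S284Y flies at 30C, against 686.2, 643.2 and 1024.8 in WT flies at 30C. Array 3 of the S284Y flies reached into the WT range, and the log2 fold change was -0.73 ± 0.39 (limma adjusted p = 0.566). For mRpS18A and mRpS18C the log2 fold change at 30C was 0.05 each. mRpS16 had 2312, 2449.7 and 2428.3 in S284Y flies, against 3437.4, 3172.6 and 2863.4 in WT flies. Its genotypes did not overlap, and the log2 fold change was -0.39 ± 0.263 (limma adjusted p = 0.703). It had an adjusted p of 0.0430 where only the 30C arrays were fitted with limma, again without the share of all probe sets called.

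A single member, mRpS6, was called in any of the 5 comparisons with all arrays, and it fell in S284Y flies at 30C relative to 25C. mRpS6 is a small-subunit protein with a bacterial relative. Its signals were 1401, 1828.6 and 1329.7 in S284Y flies at 30C, 2271.6, 2025.4 and 1980.6 in WT flies at 30C, 2037.8, 2565.3 and 3195.9 in S284Y flies at 25C, and 1635.6, 1744.4 and 1885.4 in WT flies at 25C. Every S284Y array at 30C was below every S284Y array at 25C, and below every WT array at 30C. The log2 fold change of S284Y flies at 30C against 25C was -0.76 ± 0.192 (1.69-fold lower, limma adjusted p = 0.0467, interval -1.17 to -0.34). It was -0.60 (adjusted p = 0.0421) without array 3 of S284Y flies at 25C. With array 1 as the only S284Y 25C array the value was -0.43 and the call was lost (adjusted p = 0.282), as it was with limma's array weights (-0.57, adjusted p = 0.220) and without any single array other than S284Y 25C arrays 1 and 3 (adjusted p between 0.0687 and 0.174).

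**Figure D3:**
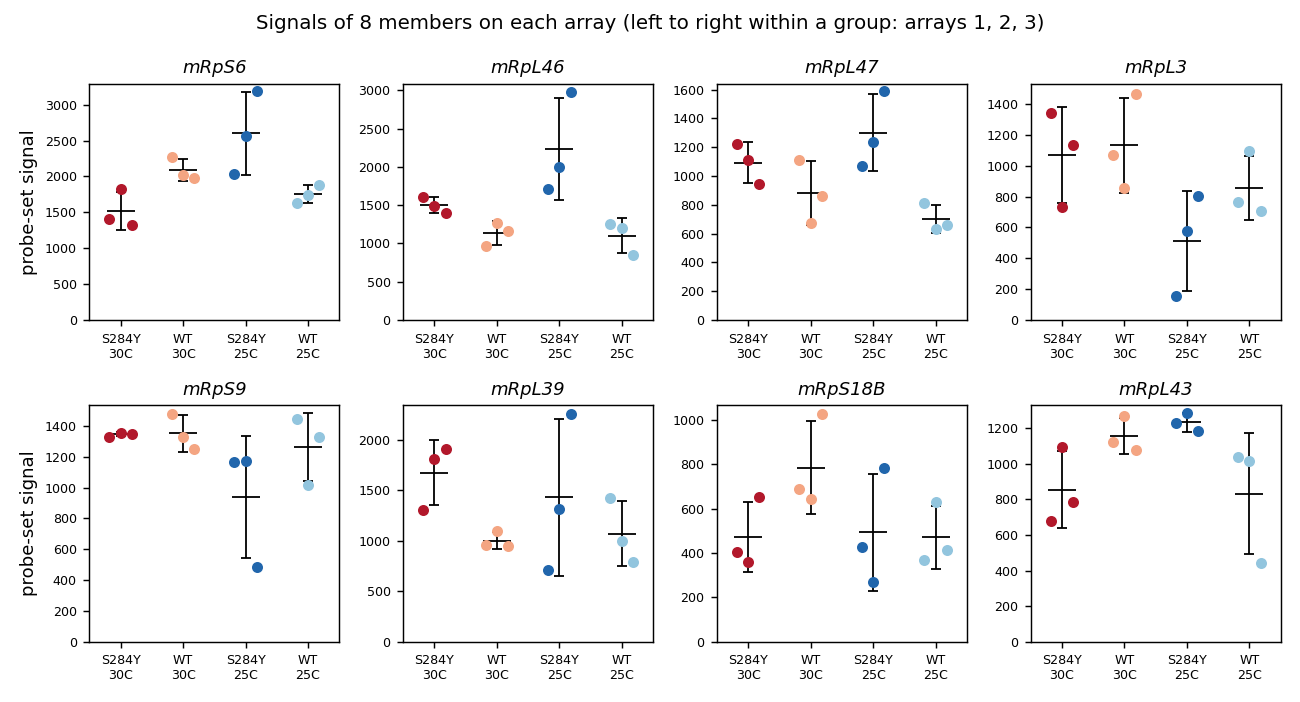
Signals of 8 members on each array by group, with the mean and SD of 3 arrays. The S284Y arrays at 30C lie below the other 3 groups for mRpS6 apart from array 2, and the S284Y arrays at 25C lie above the WT arrays at 25C for mRpL46 and mRpL47.

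No other member passed the test between temperatures in S284Y flies with all arrays. In that fit, 22 of 64 had a higher mean log2 signal at 30C, and the median log2 fold change was -0.14 against -0.05 over all genes (quantile normalization gave 16 of 64 and -0.21). Without array 3 of S284Y flies at 25C, 31 of 64 were higher and the median was -0.004543. With array 1 as the only S284Y 25C array, 33 of 64 were higher and the median was 0.01. The call of mRpS6 is 1 of 64 members lower and 0 higher, against 2.18% of all probe sets called lower and 1.82% higher. Without array 1 of S284Y flies at 25C, 5 members were called lower and 1 higher, and without array 3, 1 lower and 3 higher. The shares of all probe sets called in these 2 fits are not given here, so the counts cannot be set against them. At an unadjusted p under 0.05, 7 members were lower and 1 higher, where all probe sets had 12.1% lower and 13.6% higher. The groups did not overlap in 8 members that were lower and 3 that were higher, against 13.5% and 13.7% of all genes.

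The extremes in S284Y flies between temperatures shared mRpL3, mRpS9 and mRpS30 with the comparison of genotypes at 25C, and both comparisons use the same S284Y 25C arrays. mRpL3 had signals of 1339.9, 732.6 and 1131.3 in S284Y flies at 30C, against 158.8, 577 and 801.6 in S284Y flies at 25C. Array 2 at 30C fell within the 25C range, and the log2 fold change was 1.26 ± 0.469 (limma adjusted p = 0.124). It was 1.71 (adjusted p = 0.0318) without array 3 at 25C and 0.60 (adjusted p = 0.213) without array 1 at 25C. With array 1, the lowest of all arrays for mRpL3, as the only 25C array it was 2.59. mRpL41 had 279.4, 166.9 and 245.6 at 30C, against 324.8, 451 and 643.2 at 25C, without overlap, and a log2 fold change of -0.96 ± 0.35 (limma adjusted p = 0.118). Without single arrays it ran from -1.20 to -0.72. mRpS9 and mRpS30 were higher at 30C by 0.62 ± 0.292 and 0.39 ± 0.271 (log2, limma adjusted p = 0.203 and 0.382), and by 0.20 and 0.11 without array 3 at 25C. For mRpS30 it was 0.72 (adjusted p = 0.0446) without array 1 at 25C. mRpL22 was lower at 30C by a log2 fold change of -0.63 ± 0.409 (limma adjusted p = 0.346), or -0.23 without array 3 at 25C. Without array 3 at 25C, mRpS7 (0.44, limma adjusted p = 0.0288) and mRpS25 (0.70, adjusted p = 0.0449) also passed the threshold as higher at 30C.

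In WT flies, no member passed the test between temperatures. Of 64 members, 41 had a higher mean log2 signal at 30C than at 25C, with log2 fold changes from -0.82 to 0.73 and a median of 0.07 (0.04 after quantile normalization) against -0.00277 over all genes. The lowest adjusted p in limma was 0.636. At an unadjusted p under 0.05, 1 member was higher (mRpL1) and 0 lower, where all probe sets had 2.56% higher and 3.92% lower. Over the array, 0.0286% of probe sets were called higher and 0.0644% lower. The groups did not overlap in 10 members that were higher and 3 that were lower, against 12.4% and 11.7% of all genes. For 55 of the 64 members the 95% confidence interval lay within a 2-fold change.

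The highest members in WT flies were mRpS18B, mRpL43 and mRpL4, and the lowest mRpL22, mRpL10 and mRpL44. mRpS18B had 686.2, 643.2 and 1024.8 at 30C, against 367.2, 629.9 and 412.3 at 25C, a log2 fold change of 0.73 ± 0.39 (limma adjusted p = 0.811). Its groups did not overlap, with array 2 at 30C only just above array 2 at 25C. mRpL43, a mitochondria-specific large-subunit protein, had 1124, 1270.4 and 1077.9 at 30C, against 1038, 1016.9 and 440.1 at 25C, a log2 fold change of 0.56 ± 0.299 (limma adjusted p = 0.811). Array 3 at 25C was far below the rest, and without it the value was 0.17. mRpL22 had 219.5, 110.1 and 256.8 at 30C, against 334.8, 370.5 and 313.4 at 25C, a log2 fold change of -0.82 ± 0.409 (limma adjusted p = 0.778) between dim signals, which ran from -1.04 to -0.49 without single arrays. mRpL10, which in bacteria anchors the stalk proteins, and mRpL44 gave -0.41 ± 0.247 (limma adjusted p = 0.859) and -0.40 ± 0.216 (adjusted p = 0.811), and at their smallest, without single arrays, -0.27 and -0.20. mRpL1, whose bacterial relative forms the other stalk of the large subunit, had 2098.6, 1927.6 and 1800 at 30C, against 1423.6, 1407.4 and 1487.6 at 25C, without overlap, and a log2 fold change of 0.43 ± 0.157 (limma adjusted p = 0.636).

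No member passed the test of the interaction, the temperature difference in S284Y flies minus that in WT flies. In limma, 0% of all probe sets passed it in either direction. It was positive for 14 of 64 members, with a median of -0.25 against 0.01 over all genes, and the median was -0.05 without array 3 of S284Y flies at 25C. At an unadjusted p under 0.05, 0 members were positive and 2 negative, where all probe sets had 3.76% positive and 4.31% negative. Those members were mRpL43, with an interaction of -1.11 ± 0.423 (log2, limma adjusted p = 0.605), and mRpS6, with -1.01 ± 0.272 (adjusted p = 0.468). Interaction values were less precise than the other comparisons, with a median 95% confidence interval of 0.757 to either side, and 21 of 64 members had an interval within 2-fold.

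Other genes of mitochondrial translation had lower deviations than the members on array 3 of S284Y flies at 25C. The median there was -0.62 for 14 mitochondrial aminoacyl-tRNA synthetases, which charge the tRNAs that these ribosomes read, and -0.08 for 8 translation factors, against 0.70 for the ribosomal proteins. At 25C, S284Y against WT, 3 of 14 synthetases had a higher mean log2 signal (median log2 fold change -0.46) and 3 of 8 factors (median -0.04), and none was called. In S284Y flies at 30C against 25C the medians were 0.67 for the synthetases and 0.20 for the factors, and 0.14 and 0.33 without array 3 at 25C. Among the factors, mRF1, a release factor that ends translation, rose with a mean of 349.4 ± 134.8 at 30C and 67.53 ± 18.84 at 25C (SD, n = 3 each), a log2 fold change of 2.08 ± 0.471 (limma adjusted p = 0.0361). Without array 3 at 25C it was 1.88 (adjusted p = 0.0448). With array 1 as the only 25C array it was 1.94 and the call was lost (adjusted p = 0.165). Genes that keep up and transcribe mitochondrial DNA (13 measured) had medians of 0.32 in S284Y against WT at 30C, where 12 of 13 were higher and none called, and -0.01 at 25C. Among them mTerf3, a factor tied to mitochondrial transcription and ribosome assembly in mammals, rose in S284Y flies at 30C with a mean of 450.2 ± 127.8, against 94.13 ± 56.78 at 25C (log2 fold change 2.22 ± 0.456, limma adjusted p = 0.0274). Without array 3 at 25C its log2 fold change was 2.56 (adjusted p = 0.0095). With array 1 as the only 25C array, its value was 1.87 and the call was lost (adjusted p = 0.0732). Import and folding genes (12 measured), which bring ribosomal proteins into the matrix, had medians of 0.24 at 30C and 0.20 at 25C in S284Y against WT, and 3 regulators of nuclear genes for mitochondria had 0.15 and -0.17, with none called.

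Nuclear genes for oxidative phosphorylation encode the partners of the subunits that these ribosomes make. In S284Y flies at 30C against 25C, the 66 oxidative phosphorylation genes had a median log2 fold change of -0.63, with 13 called lower and 0 higher, while the members had a median of -0.14 with 1 called lower. Of all probe sets, 2.18% were called lower and 1.82% higher in that fit. Without array 3 at 25C, 21 of the 66 were called lower with a median of -0.44. The share of all probe sets called without array 3 is not given here. With array 1 as the only 25C array the median was -0.43. ATPsynO, a subunit of the ATP synthase stalk, averaged 12010 ± 1042 at 30C and 22250 ± 3011 at 25C (SD, n = 3 each), a log2 fold change of -0.88 ± 0.168 (limma adjusted p = 0.0241). It was -0.78 (adjusted p = 0.0086) without array 3 at 25C and -0.725 with array 1 as the only 25C array. In WT flies at 30C against 25C the medians were -0.20 for oxidative phosphorylation and 0.07 for the members. At 30C, S284Y against WT, they were -0.24 (6 of 66 higher) and 0.000834 (32 of 64 higher), and no gene of either list was called. The 36 genes for cytoplasmic ribosomal proteins had medians of 0.16 at 30C and 0.37 at 25C in S284Y against WT, -0.48 in S284Y flies and -0.18 in WT flies at 30C against 25C, with none called. After quantile normalization, these 4 medians were 0.04, 0.08, -0.02 and 0.13, so that the direction in WT flies turned. These comparisons share arrays, so the lists' values are given side by side and the difference between lists was not tested. On array 3 of S284Y flies at 25C, oxidative phosphorylation genes had a median deviation of 0.78 and cytoplasmic ribosomal protein genes 0.52. On array 2 of that group these medians were 0.17 and 0.77, against 0.000987 for the members.

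**Figure D4:**
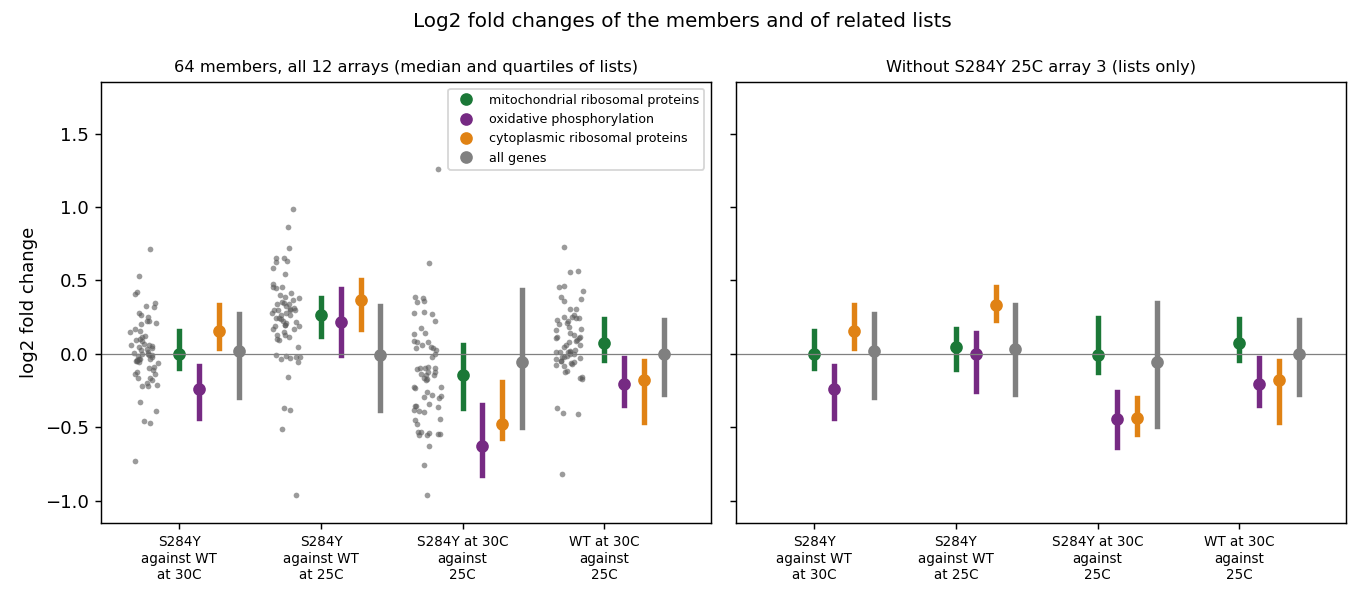
Log2 fold changes in the 4 comparisons, for the 64 members (small grey points) and as median and quartiles (dots and bars) for the members, 66 oxidative phosphorylation genes, 36 cytoplasmic ribosomal protein genes and all genes, with all 12 arrays at left and without S284Y 25C array 3 at right. The members' median at 25C is 0.27 with that array and 0.05 without it, and 0.000834 at 30C in both panels.

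Summed signals of marker genes for the tissues of a whole fly also differed between the groups, and their part in the members' values was not tested. Muscle markers (6 of 8 measured), from a tissue rich in mitochondria, summed to 21580 to 27120 in S284Y flies at 30C, 24830 to 27270 in WT flies at 30C, 48260 to 76420 in S284Y flies at 25C and 47540 to 54300 in WT flies at 25C. Gut markers (8 of 8) summed to 118700 to 140300 in S284Y flies at 30C and 70020 to 89530 in WT flies at 30C, and to 136700 to 357000 in S284Y flies at 25C and 94210 to 119100 in WT flies at 25C. The list did not move as a whole: at 30C, S284Y against WT, the lysozyme LysB was called higher (2.88, limma adjusted p = 0.00160), as was LysP (3.07), while Mal-A1 (-1.50), thetaTry (-0.86) and Jon25Bi (-1.59) were called lower. Yolk and ovary markers (13 of 15) summed to 302900 to 340900 in S284Y flies at 30C and 189500 to 271800 in WT flies at 30C, and to 336800 to 1077000 in S284Y flies at 25C and 289700 to 389300 in WT flies at 25C. A sum follows its brightest markers. In S284Y flies, osk (1.19, limma adjusted p = 0.0315) and vas (0.72, adjusted p = 0.0404) were called higher at 30C than at 25C, although the sum did not rise. Male gland and testis markers (15 of 16) summed to 25690 to 35020 in S284Y flies at 30C, 34740 to 39330 in WT flies at 30C, 33260 to 77710 in S284Y flies at 25C and 31000 to 36310 in WT flies at 25C, so RNA of both sexes was present in every group. Fat body markers (4 of 4) summed to 9064 to 11370 in S284Y flies at 30C, 19690 to 22750 in WT flies at 30C, 13300 to 18340 in S284Y flies at 25C and 27970 to 29070 in WT flies at 25C. On array 3 of S284Y flies at 25C, where the members' median deviation was 0.70, it was 0.97 for the muscle markers (4 of 6 highest there of the 12 arrays), 0.91 for the male markers (11 of 15) and 0.70 for the gut markers (4 of 8). It was 0.18 for the yolk and ovary markers (0 of 13 highest there, 6 lowest), 0.02 for 3 eye markers and -0.12 for the fat body markers. Muscle markers were above 0 on the other 25C arrays too, at 0.74 and 0.28 on S284Y arrays 1 and 2 and 0.48 to 0.69 on WT arrays.

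Where a gene had a second probe set, both were read. mRpL12 had a dimmer probe set with log2 fold changes of -1.75 at 30C and 0.88 at 25C for S284Y against WT, while its brightest gave 0.23 and 0.22. The probe sets of mRpL11 gave -0.25 (dimmer) and -0.18 (brighter) at 30C, and -0.10 and 0.21 at 25C. Between temperatures, 30C against 25C, the dimmer and brighter probe sets of mRpL12 gave -1.765 and 0.38 in S284Y flies. In WT flies they gave 0.87 and 0.37. Those of mRpL11 gave -0.41 and -0.37 in S284Y flies, and -0.26 and 0.03 in WT flies. None of these values passed the threshold.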

How the data were processed

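The deposited values are intensity, probe-set signals on a linear scale in a table of probe sets by arrays. The authors' steps before deposit were not given in the sources used here, but each array's 2% trimmed mean was 1000.12 to 1000.18, so values were taken as already scaled. Of 14010 probe sets, 44 controls were left out and 13966 tested. GEO's platform annotation gave 12443 of them a single symbol, 327 several and 1196 none, and 12394 symbols were updated by Entrez number through the RefSeq table.

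Log2(signal + 16) was fitted with limma 3.58.1 in R 4.3.3 (4 group means on 12 arrays, eBayes with trend, Benjamini-Hochberg over all tested probe sets, threshold 0.05) and tested on simulated data. Precision is limited by the number of arrays, 3 against 3 allowing no exact permutation p under 0.1. The members and gene lists were chosen with earlier results of these data known, so lists are described and not tested. The members named are those with the 3 highest and 3 lowest changes in each comparison of 2 groups, those called, the 3 brightest and 2 dimmest, and tko and bonsai; other members named, such as mRpL1, mRpL23, mRpS25, mRpS18A and mRpS18C, were chosen after their values were seen. Alternatives changed the offset, normalization, filter, variance model, array weights, arrays fitted, labels, probe set per gene and replicate block.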

Additional observations from a re-analysis of the deposited data

Results flagged for a closer look

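In 2 members the arrays moved in opposite directions under the same comparison, without overlap on either side. Between temperatures, 13.7% of all genes were higher and 13.5% lower without overlap in S284Y flies, and 12.4% and 11.7% in WT flies. Between genotypes these shares were 15.3% and 14.6% at 30C and 7.58% and 7.41% at 25C. The share of all genes with opposite directions is not given here, so the 2 members cannot be set against it. mRpS6 was lower in S284Y than in WT flies at 30C (log2 fold change -0.47) and higher at 25C (0.54), and likewise lower at 30C than at 25C in S284Y flies (-0.76) and higher in WT flies (0.25). mRpL43 was lower at 30C than at 25C in S284Y flies (-0.55) and higher in WT flies (0.56). The difference itself was tested as the interaction in limma and did not pass the threshold in either, with adjusted p of 0.468 for mRpS6 and 0.605 for mRpL43. Without WT 25C array 3, the value of mRpL43 in WT flies was 0.17.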

How the results depend on the processing

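Of 248 values that answer a comparison (members called and their median log2 fold change, over all alternatives), 222 stayed on the same side or within the replicate spread of the value reported. The replicate spread, 0.205 (log2), is the pooled SD of the members' array medians within groups, S284Y 25C array 3 included. Many medians could not move, as when an array outside the comparison was left out or only the variance model changed. The count therefore does not measure how robust the results are. The share of all probe sets called under each alternative is not given here, so the members called under alternatives cannot be set against it. In S284Y against WT at 25C, 0 members were called with all arrays, 1 with array 1 as the only S284Y 25C array (mRpL3, lower), 1 with WT 30C array 1 moved to WT 25C (mRpL46, higher, adjusted p = 0.0412), and 0 to 5 without single arrays, 5 of them higher without S284Y 25C array 1 (mRpL28, mRpL46, mRpL47, mRpL51 and mRpS6). The median log2 fold change there was 0.0615 with array 1 as the only S284Y 25C array. It ran from 0.0499 to 0.404 without single arrays, 0.0499 being the value without S284Y 25C array 3. With limma's array weights on all arrays, which gave that array the lowest weight (0.125), the median was 0.0939. In S284Y against WT at 30C, 2 members were called where only the arrays compared were fitted (mRpL39 higher, mRpS16 lower) and 2 without S284Y 25C arrays 2 and 3 (mRpS6 and mRpS16, lower), and 0 without single arrays. In S284Y flies at 30C against 25C, 1 member was called with all arrays, and 0 to 6 without single arrays: 6 without S284Y 25C array 1, 4 without array 3 and 0 without any other. It was 0 under median centring, eBayes without trend, array weights, only the arrays compared, WT 30C array 1 moved to 25C, and the replicate block. mRpS6 kept its direction under each of these, with adjusted p from 0.0660 to 0.301 and, with the replicate block, 0.0729. In WT flies at 30C against 25C, 1 member was called with array weights (mRpL1, 0.44, adjusted p = 0.0496). mRpS30 turned its direction without S284Y 25C arrays 2 and 3, with log2 fold changes of 0.28 for S284Y against WT at 25C and -0.27 for S284Y flies at 30C against 25C. The causes were not tested.

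Replicate numbers did not pair the arrays: deviations of arrays with the same number correlated at -0.131 to 0.062, and apart from the mRpS6 call the block changed no call of a member. Detection calls were not used here, so dim members such as mRpL22 and mRpL41 were not checked against background.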
